A study of Mus musculus with 18 samples.

Results

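Short stretches of acetylated chromatin that lie inside genes, away from both gene ends, were examined in the cortex of mouse embryos. The mark was acetylation of lysine 9 of histone H3 (H3K9ac). Overlapping H3K9ac peaks of 8 libraries were merged into 104737 regions. Of these, 2139 were narrower than 2000 bp, had a peak in at least 6 of the 8 libraries, lay wholly within a RefSeq protein-coding gene (mm10) and were more than 5 kb from either end of any such gene. They are called intragenic regions below, and the 1337 genes that contain them are called host genes. The regions were chosen by peak presence in these same 8 libraries, so presence and peak strength are described without a test. RNA was not used to choose them.

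All samples came from whole cortex at E15.5 of BAF155 conditional knockout mice. BAF155 is a scaffold protein of the SWI/SNF-type BAF complexes, which move nucleosomes. Treatment was vehicle or TSA (trichostatin A), which blocks histone deacetylases. Each treatment had 4 H3K9ac libraries and 4 RNA libraries. Vehicle animals carried the knockout too, so every comparison is TSA against Vehicle within the knockout. The sources used here name neither the Cre line nor the deleted exons. Whether replicates were separate animals is not stated in the labels, and each p-value therefore reflects the spread among these libraries, which may be technical.

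H3K9ac marks the nucleosomes that flank active transcription starts, and it is also found at active enhancers. Inside a gene, such a mark can lie at an alternative promoter, from which a shorter transcript begins, or at an enhancer carried in the gene body. Many vertebrate promoters sit in CpG islands, stretches where the dinucleotide CpG is kept at a high density while most of the genome has lost it. Long genes of developing neurons often hold both kinds of element.

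Sequences are shown for some of the intragenic regions at annotated starts, because CpG content set their start windows apart from those of internal starts without H3K9ac. The 8 sequences below are the 200 bases just upstream of an annotated transcript start inside the host gene, each within 1 kb of an intragenic region. They come from RefSeq start windows (GRCm38.p6, the assembly of mm10), run 5′ to 3′ in the direction of the gene, and have every CpG in capitals. The first 4 belong to regions among the 10 with the highest peak rank and the others to regions in genes of the functional lists described further down, with no other listed start inside the printed bases.
Tmpo, chr10:91171620-91171819, minus strand: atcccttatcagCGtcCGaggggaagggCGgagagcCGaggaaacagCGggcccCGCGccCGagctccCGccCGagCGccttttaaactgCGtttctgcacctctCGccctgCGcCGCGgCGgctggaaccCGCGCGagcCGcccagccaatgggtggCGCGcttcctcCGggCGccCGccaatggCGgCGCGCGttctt
Sh3bp2, chr5:34549376-34549575, plus strand: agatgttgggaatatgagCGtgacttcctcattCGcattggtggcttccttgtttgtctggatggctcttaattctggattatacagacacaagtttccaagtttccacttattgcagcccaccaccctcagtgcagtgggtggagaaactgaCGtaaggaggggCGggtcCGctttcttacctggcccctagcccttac
Kansl1, chr11:104442321-104442520, minus strand: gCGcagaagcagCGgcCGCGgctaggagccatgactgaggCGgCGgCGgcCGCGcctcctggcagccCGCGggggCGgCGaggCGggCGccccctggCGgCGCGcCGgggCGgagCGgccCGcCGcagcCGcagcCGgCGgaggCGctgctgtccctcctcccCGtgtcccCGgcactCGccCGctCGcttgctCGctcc
Kdm2b, chr5:122900368-122900567, minus strand: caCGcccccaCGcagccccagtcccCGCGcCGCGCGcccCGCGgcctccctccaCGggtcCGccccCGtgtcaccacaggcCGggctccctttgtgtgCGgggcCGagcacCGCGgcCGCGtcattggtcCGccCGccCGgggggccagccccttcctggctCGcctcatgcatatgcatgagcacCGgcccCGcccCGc
Celf2, chr2:6872036-6872235, minus strand: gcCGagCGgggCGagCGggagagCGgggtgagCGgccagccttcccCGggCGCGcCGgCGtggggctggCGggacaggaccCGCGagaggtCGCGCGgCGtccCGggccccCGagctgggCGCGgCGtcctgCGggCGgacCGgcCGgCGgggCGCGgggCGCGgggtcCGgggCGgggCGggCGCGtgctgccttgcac
Robo2, chr16:74411826-74412025, minus strand: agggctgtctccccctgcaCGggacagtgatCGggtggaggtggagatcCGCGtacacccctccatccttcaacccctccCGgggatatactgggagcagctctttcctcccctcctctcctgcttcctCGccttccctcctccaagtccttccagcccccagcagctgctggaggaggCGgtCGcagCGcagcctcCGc
Ank2, chr3:127409059-127409258, minus strand: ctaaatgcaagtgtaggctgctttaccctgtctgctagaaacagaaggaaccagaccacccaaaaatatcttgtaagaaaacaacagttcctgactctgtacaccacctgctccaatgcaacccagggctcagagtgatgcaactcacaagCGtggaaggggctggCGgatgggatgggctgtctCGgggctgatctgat
Hdac7, chr15:97831768-97831967, minus strand: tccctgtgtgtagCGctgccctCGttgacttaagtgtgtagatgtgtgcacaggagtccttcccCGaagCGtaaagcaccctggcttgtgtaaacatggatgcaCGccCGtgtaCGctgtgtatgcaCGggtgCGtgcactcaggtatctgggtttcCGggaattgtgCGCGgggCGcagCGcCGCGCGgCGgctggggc

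Celf2, which encodes a neuronal RNA-binding splicing factor, had 37 CpG in these 200 bases, and Kansl1, a scaffold of a histone acetyltransferase complex, had 33. Tmpo, which encodes a protein of the inner nuclear membrane, had 30. Kdm2b, a histone demethylase whose zinc finger binds unmethylated CpG, had 26, and Hdac7, a class IIa histone deacetylase, had 18. CpG was sparser at the start in Robo2, the axon guidance receptor for Slit, with 10, in the adaptor gene Sh3bp2 with 5, and in Ank2, which encodes ankyrin-B, with 3. The intragenic regions were therefore not uniform in this property.

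For contrast, the same 200 bases are shown for 2 internal starts of host genes that had no H3K9ac peak of any library within 1 kb. Dlg2 encodes a postsynaptic scaffold and Chd9 a chromodomain helicase.
Dlg2, chr7:92062194-92062393, plus strand: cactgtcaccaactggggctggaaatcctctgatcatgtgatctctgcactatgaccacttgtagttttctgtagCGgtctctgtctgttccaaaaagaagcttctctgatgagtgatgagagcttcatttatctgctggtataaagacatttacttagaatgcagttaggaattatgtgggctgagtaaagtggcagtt
Chd9, chr8:90932049-90932248, plus strand: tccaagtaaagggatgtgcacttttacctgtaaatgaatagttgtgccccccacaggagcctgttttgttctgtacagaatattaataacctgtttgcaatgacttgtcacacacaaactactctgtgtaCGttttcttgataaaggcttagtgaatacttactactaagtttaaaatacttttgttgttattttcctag

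Each of these 2 sequences held 1 CpG. The contrast held over the whole table of starts. Among 763 internal starts within 1 kb of an intragenic region, the median ratio of observed to expected CpG in a window of 300 bases (250 before and 50 after the start) was 0.645, and 55.2% of windows reached 0.6. Among 2535 internal starts with no peak of any library within 1 kb, the median was 0.211 and 3.27% reached 0.6. The printed sequences do not give the typical contrast. The ratios of Dlg2 (0.063) and Chd9 (0.111) lay below the lower quartile of starts with no peak, 0.118. Those of Tmpo, Kansl1, Kdm2b, Celf2 and Hdac7 (0.939 to 1.09) lay above the upper quartile near intragenic regions, 0.857. Those of Sh3bp2, Robo2 and Ank2 (0.248 to 0.554) lay below the median there. Starts at a gene end with an H3K9ac region of 6 or more libraries had a median of 0.787 (n = 4854), and all 32851 windows of the table had a median of 0.384. Internal starts near an intragenic region were thus closer in CpG to marked gene ends than to unmarked internal starts. Windows of one gene can overlap, so they are not independent, and no test was made.

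Short promoter motifs differed in how they were spread over these windows. Each was searched on both strands of the 300 bases. GGGCGG, the box bound by SP and KLF factors, occurred in 56.6% of internal start windows near an intragenic region, against 8.48% of internal starts with no peak, 68.1% of marked gene-end starts and 35.7% of all windows. TATAAA, the core promoter box bound by TBP, went the other way, with 6.16% near an intragenic region, 18.5% at starts with no peak, 7.38% at marked gene ends and 13.6% of all windows. The shares of CCAAT were almost equal, 35.5% and 35.3% at internal starts with and without an intragenic region and 37.4% of all windows. The E-box CAGCTG occurred in 137 of the 763 windows near an intragenic region and 460 of the 2535 with no peak, almost the same share, and in 16.3% of all. Another E-box, CAGATG, was in 13.5% of windows near an intragenic region, 23.0% of those with no peak and 17.2% of all. The homeobox core TAATTA occurred in 2.23%, 6.47% and 5.29%, in the same order. The SP and KLF box itself contains a CpG, while the TBP box and the homeobox core lack one, so these shares depend on base composition too.

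**Figure D1:**
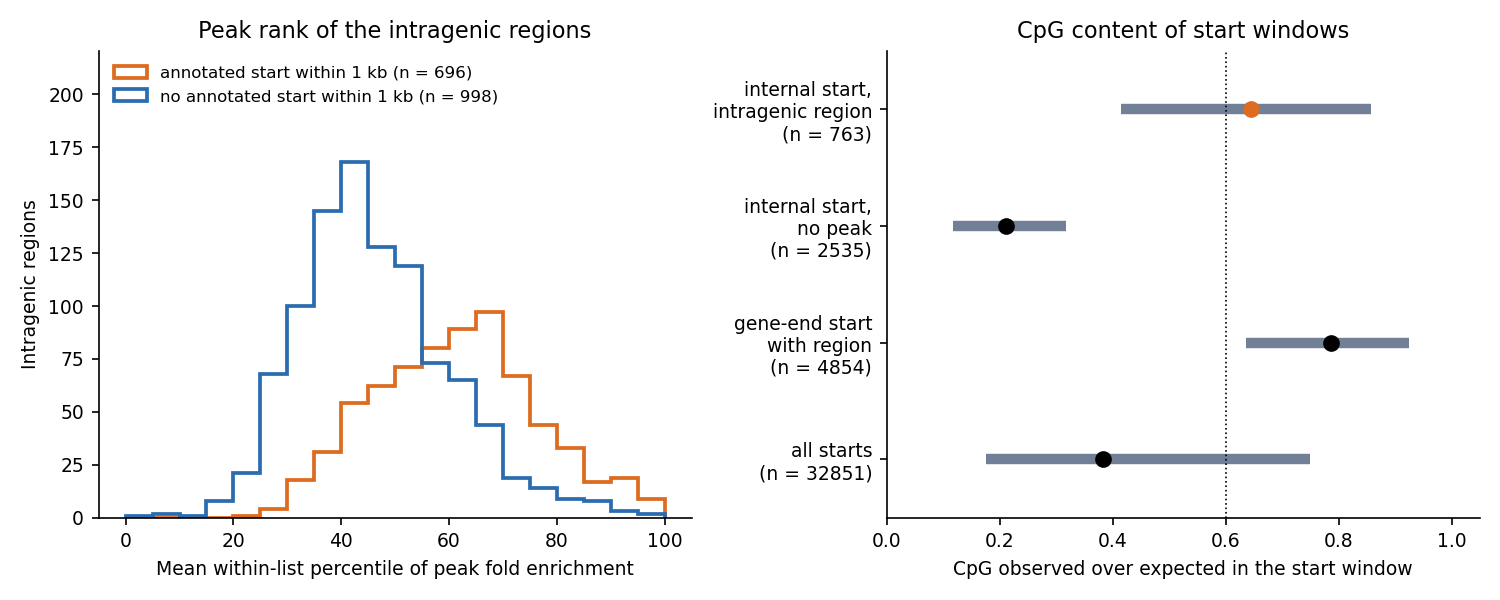
Left, number of intragenic regions by the mean within-list percentile of peak fold enrichment, for 696 regions with an annotated start within 1 kb and 998 without. Right, median (point) and interquartile range (bar) of the observed over expected CpG ratio in start windows of 300 bases, with a dotted line at 0.6; the first 2 rows are internal starts with and without H3K9ac, at medians of 0.645 and 0.211.

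Of the 2139 intragenic regions, 1694 lay in host genes that matched the table of starts, and shares of starts are given over these. An annotated start lay inside the region or within 1 kb of it in 696, or 41.1%. The 95% Wilson interval, which covers counting error only, ran from 38.8 to 43.4%. In 393 of the 696 the start was inside the region itself. In 614 the start belonged to the host gene itself, and in 82 to a long noncoding RNA gene. By comparison, 89.3% of narrow regions within 5 kb of a gene end (9873 of 11050 that could be matched to the table) and 17.7% of narrow regions outside genes (216 of 1219) had a start within 1 kb. The class rules set part of these shares. Regions of the first class lay at a median of 51 bp from a gene end, and those outside genes more than 5 kb from any protein-coding gene end. The remaining 998 intragenic regions, 58.9%, had no annotated start within 1 kb.

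Regions at starts ranked higher. Fold enrichment, the authors' ratio of a peak to its local background, was turned into a percentile within each list and averaged over the libraries with a peak. The median percentile was 61.2 for regions with a start and 44.6 for regions without. A start was found for 0 of the 12 regions below percentile 20, and for 13.9% between 20 and 40, 35.4% between 40 and 60, 67.7% between 60 and 80 and 78.0% above 80. Among regions with a start, the higher-ranked ones had the greater CpG density: the median ratio was 0.749 in the upper and 0.590 in the lower 348. Peak rank and the number of libraries both entered through the lists, and they are description only.

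The 10 regions of highest rank had peaks in all 8 libraries and 7 of them lay at annotated starts. The region at the internal start of Tmpo (chr10:91171680-91172540, mean percentile 98.5) had fold enrichments of 11.4, 17.1, 22.1 and 9.61 in Vehicle 1 to 4 and 12.7, 13.8, 13.6 and 25.3 in TSA 1 to 4. These values come from lists of different length and depth and show no order between treatments. The region at the start within Senp7, which encodes a SUMO protease (chr16:56075371-56076261), had a mean percentile of 96.5, and no library had a peak within 1 kb of the outer 5′ end of that gene. The regions at starts in Sh3bp2 (97.3), Kansl1 (96.1), Kdm2b (95.7), Idh1 (95.4), the cytosolic isocitrate dehydrogenase gene, and Tmem14a (95.3) completed this group, with the mean percentile in parentheses. The other 3 of the 10 were a pair of regions in Tex14 without an annotated start and a region in Hexim2, an inhibitor of the elongation kinase P-TEFb, whose starts were not in the table.

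In many hosts the internal start carried the mark while the outer end of the gene did not. The outer end is the outermost 5′ end that RefSeq gives for the gene. Among tested host genes with a region at an annotated start, 252 of 526 (47.9%) had an H3K9ac region of 6 or more libraries within 1 kb of that end. The share was 77.2% (363 of 470) for hosts whose regions had no annotated start, and 80.1% (5804 of 7248) for tested genes over 10 kb with no intragenic region. No library at all had a peak within 1 kb of the outer 5′ end in 198 of the 526 (37.6%), in 47 of the 470 and in 655 of the 7248 (9.04%). Psma6, which encodes a subunit of the proteasome, is such a case. Its region (chr12:55398069-55399832) covered an annotated start, had peaks in all 8 libraries and ranked at percentile 78.4, and none of the 8 libraries had a peak at the outer 5′ end. Hdac7, Fgf13, Shank3, Stk25, Exoc6, Lifr and Pid1 also had a region at an internal start and no peak at the outer end. Tmpo, Celf2, Kdm2b and Kansl1 had peaks of all 8 libraries at both.

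Regions at starts lay nearer the 5′ side of their hosts. With the allowed part of each gene divided into 5 equal stretches, 32.9% of 694 regions with a start were in the first and 9.37% in the last. The 988 regions without a start were spread more evenly, with 23.5% in the first and 178 regions in the last. The median distance to the outer 5′ end was 24.8 kb and 41.1 kb.

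Compared with other narrow regions of 6 or more libraries, the intragenic regions resembled intergenic ones. A peak in all 8 libraries was seen for 897 intragenic regions (41.9%), against 42.5% of 1591 intergenic regions and 67.3% of 13671 regions within 5 kb of a gene end. Their median percentile was 50.4, against 50.6 and 65.3. Intragenic regions with a start came nearer to those at gene ends, with 60.2% in all 8 libraries, and those without a start had 28.9%. Widths ran from 199 to 1995 bp with a median of 889 bp. The summits of one region spread over a median of 387 bp between libraries. Another merged region, counting those with a peak in a single library, lay within 1 kb of 74.9% of intragenic, 78.0% of gene-end and 61.2% of intergenic regions. Another intragenic region lay within 1 kb of 564 of them (26.4%).

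Values just inside and just outside the limits of the rule were close. The 662 regions with 6 libraries had a median percentile of 41.4, and 787 otherwise equal regions with 5 libraries had 37.6. The 28 regions within 100 bp below the width limit had a median percentile of 48.9, and 36 left out within 100 bp above it had 54.6. Up to 500 bp beyond the limit of 5 kb from a gene end lay 78 regions, with a median percentile of 51.5, and 72 left out up to 500 bp short of it had 57.8.

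Most hosts held 1 intragenic region, and a few held long series of them. Of the 1337 hosts, 893 had 1, 279 had 2, 85 had 3 and 80 had 4 or more. Gse1, which encodes a coiled-coil protein found with the LSD1 and HDAC corepressor complex, held 28 within 282 kb (gene at chr8:120228501-120581383). Of these, 8 had peaks in all 8 libraries, 12 in 7 and 8 in 6, and only 1 had an annotated start within 1 kb. Vehicle libraries had a peak in 98 instances over the 28 regions, and TSA libraries also in 98. The median gap between neighbouring regions was 3.46 kb and the median percentile 44.3, so the series was made of modest peaks. Its outermost 5′ end had no peak in any library.

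Tcf20, a transcriptional coregulator gene, held 12 regions within 65.2 kb. Msra, which encodes a methionine sulfoxide reductase, held 11 spread over 295 kb. Tcf4, the bHLH factor of neuronal differentiation, Maml3, a coactivator of Notch, and Celf4, an RNA-binding protein gene, held 9 each. Ttc28 and Myo1d, an unconventional myosin gene, held 8 each. Per 100 kb of gene, Gse1 (7.94) and Tcf20 (6.68) were denser than Msra (3.30), Maml3 (2.15) and Ttc28 (1.95). In Ttc28 the peaks were 23 in Vehicle and 31 in TSA libraries, the most unequal of these 8 hosts.

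**Figure D2:**
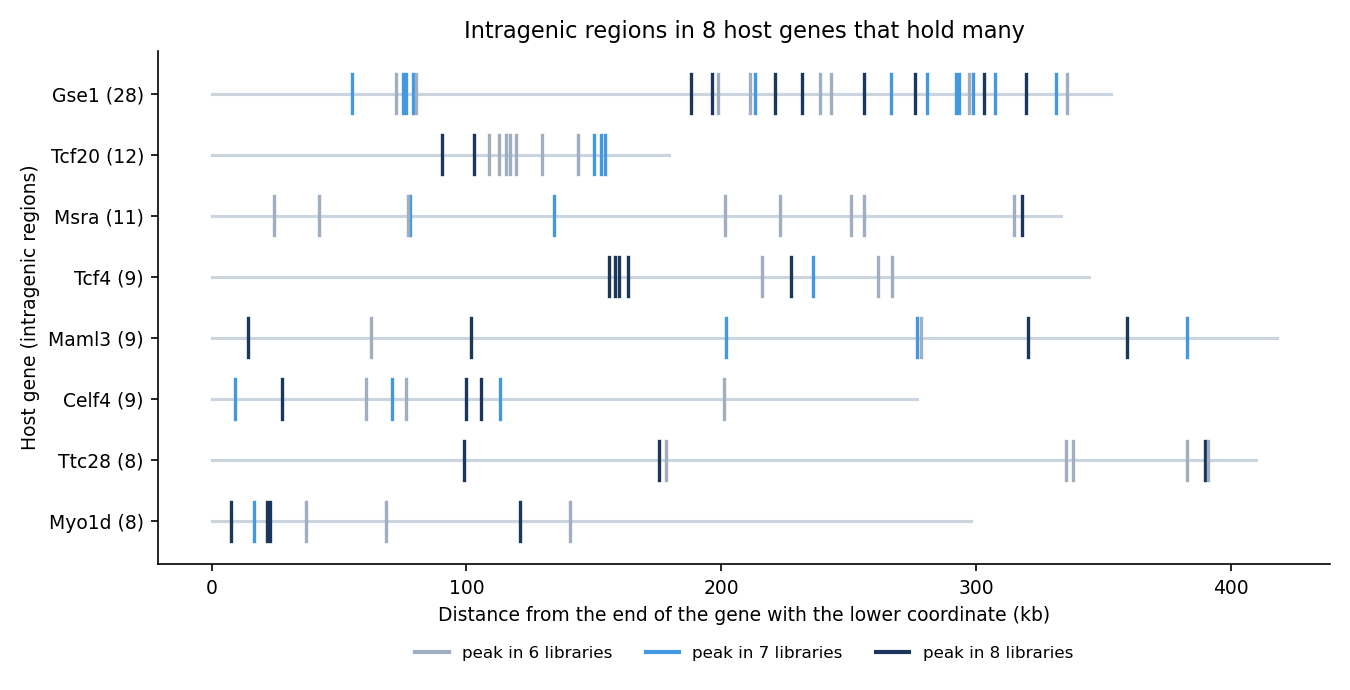
Position of each intragenic region (vertical tick) along 8 of the host genes with most regions, in kb from the gene end of lower coordinate; grey lines span the gene and darker ticks had peaks in more libraries. Gse1 holds 28 regions and Tcf20 12, while Msra and Maml3 hold theirs far apart.

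The 8 peak lists did not contribute equally. Vehicle 1 to 4 had a peak in 1936, 2012, 2065 and 1302 of the 2139 regions, and TSA 1 to 4 in 2006, 2046, 1728 and 2113. Vehicle 4 and TSA 3 were the lowest, and they also had the shortest lists, 22668 and 32248 peaks against 41331 to 61217 in the other 6. Depth did not follow this order: Vehicle 4 rested on 24075842 tags, the most of all, and TSA 3 on 15365856, within the range of 11824246 to 19920755 of the others. Narrow regions near gene ends lost fewer peaks in Vehicle 4 (76.5% present) than intragenic (60.9%) or intergenic (62.9%) ones.

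**Figure D3:**
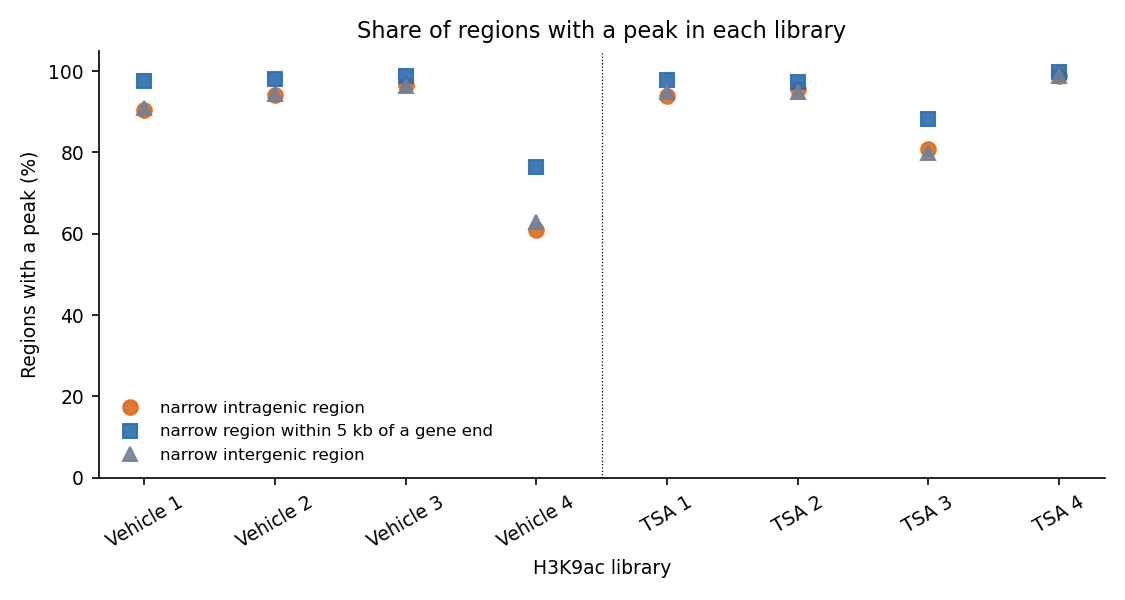
Share of narrow regions with a peak in each H3K9ac library, for intragenic regions (circles), regions within 5 kb of a gene end (squares) and intergenic regions (triangles). In all 3 classes Vehicle 4 and TSA 3 are the lowest of their group, at 60.9% and 80.8% for intragenic regions.

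Regions split by treatment rested mainly on these 2 lists. Peaks were missing in 2 Vehicle libraries and present in all TSA libraries for 219 regions, of which 197 lacked Vehicle 4. The opposite split was seen for 62, of which 49 lacked TSA 3. Of the 580 regions missing 1 library, 343 lacked Vehicle 4 and 112 lacked TSA 3. In all 6 other libraries, 1559 of the 2139 regions had a peak. A treatment difference and a difference between lists cannot be told apart here.

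The highest-ranked regions with peaks in 4 TSA and 2 Vehicle libraries were at annotated starts, in Epb41l3, which encodes a membrane skeleton protein (mean percentile 71.2), Celf5, the kinase gene Stk25 (69.8) and Exoc6, of the exocyst (67.9). All 4 lacked Vehicle 1 and Vehicle 4. The Celf5 region lay 27 bp from another intragenic region with the opposite split, 4 Vehicle and 2 TSA libraries. Another region lay 52 bp from the Epb41l3 region, with peaks in 3 libraries of each group. One with peaks in all 8 libraries lay 309 bp from the Stk25 region, and Exoc6 held only 1 region. A split region therefore does not show that its locus lacked the mark in Vehicle. With peaks in 4 Vehicle and 2 TSA libraries, the first were in Zfp949 (86.0), Acacb, an acetyl-CoA carboxylase gene (78.7), Shank3, a postsynaptic scaffold gene (60.0), and Rims1, of the presynaptic active zone (59.6). Zfp949 lacked TSA 3 and TSA 4, Acacb lacked TSA 1 and TSA 4, and Shank3 and Rims1 lacked TSA 1 and TSA 3.

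RNA of the host genes was higher in TSA more often than lower. Counts were tested with edgeR (quasi-likelihood, Benjamini-Hochberg over 15000 genes), and a gene rose or fell if its adjusted p was under 0.05. Of 1253 tested hosts, 461 rose (36.8%) and 104 fell (8.30%), with a median log2 change, TSA minus Vehicle, of 0.19. Over all tested genes 15.4% rose and 17.6% fell, 33.0% in either direction, and the median was −0.01. Among 9049 tested protein-coding genes over 10 kb with no intragenic region, 17.4% rose and 17.2% fell, 34.6% in either direction, with a median of 0.02. The 4 TSA libraries lay wholly above the 4 Vehicle libraries in 438 tested hosts and wholly below in 102, together 43.1%, against 32.3% of all tested genes and 34.2% of genes without an intragenic region. RNA totals were 6733415 to 20400727 counts per library. The mitochondrial share of RNA counts was 2.86% in Vehicle 1, 1.599% in Vehicle 2, 1.997% in Vehicle 3 and 3.36% in Vehicle 4, and the TSA libraries lay between 1.48 and 1.71%. Vehicle 1 and Vehicle 4 were thus highest, and Vehicle 2 lay within the TSA range. Without Vehicle 1 and Vehicle 4, 32.9% of hosts rose and 9.17% fell, against 15.6% and 17.1% of genes without an intragenic region. In bulk tissue, a change in the share of cells that express a gene and a change in RNA per cell cannot be told apart.

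The share that rose grew with the number of intragenic regions. With 1 region 245 of 818 tested hosts rose and 10.4% fell. With 2 regions 43.1% of 276 rose and 6.52% fell, and with 3 regions 58.5% of 82 rose and 1.22% fell. With 4 or more, 49 of 77 (63.6%) rose and 0 fell, and the median log2 change was 0.45, against 0.13 with 1 region. Hosts with more regions were also longer, with a median span of 77.1 kb for 1 region and 177 kb for 4 or more, and longer genes rose more often in these libraries.

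The comparison was therefore repeated within classes of span. Between 10 and 30 kb, 38 of 211 hosts rose and 13.7% fell, against 11.9% and 22.7% of genes with no intragenic region. Between 30 and 100 kb the shares were 37.3% and 9.58%, against 19.1% and 15.1%. Between 100 and 300 kb, 43.0% of hosts rose and 5.22% fell, against 27.7% and 7.52%, and above 300 kb 44.4% rose and 8 of 160 fell, against 29.1% and 7.28%. In each class hosts rose more often and fell less often than genes without such regions, with hosts of 1 and of more regions pooled. From the shortest class to the longest, 14.1, 32.4, 36.9 and 30.1% of hosts with 1 region rose. With 2 or more regions, 31.2, 47.7, 53.7 and 56.3% rose. Above 300 kb, hosts with 1 region were close to genes without one: 30.1% against 29.1% rose and 9.59% against 7.28% fell. Among genes over 100 kb with a mean of at least 10 CPM (each count relative to its library size), a comparison added after seeing the data, 49.7% of 477 hosts rose and 35.8% of 1134 genes without a region did.

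**Figure D4:**
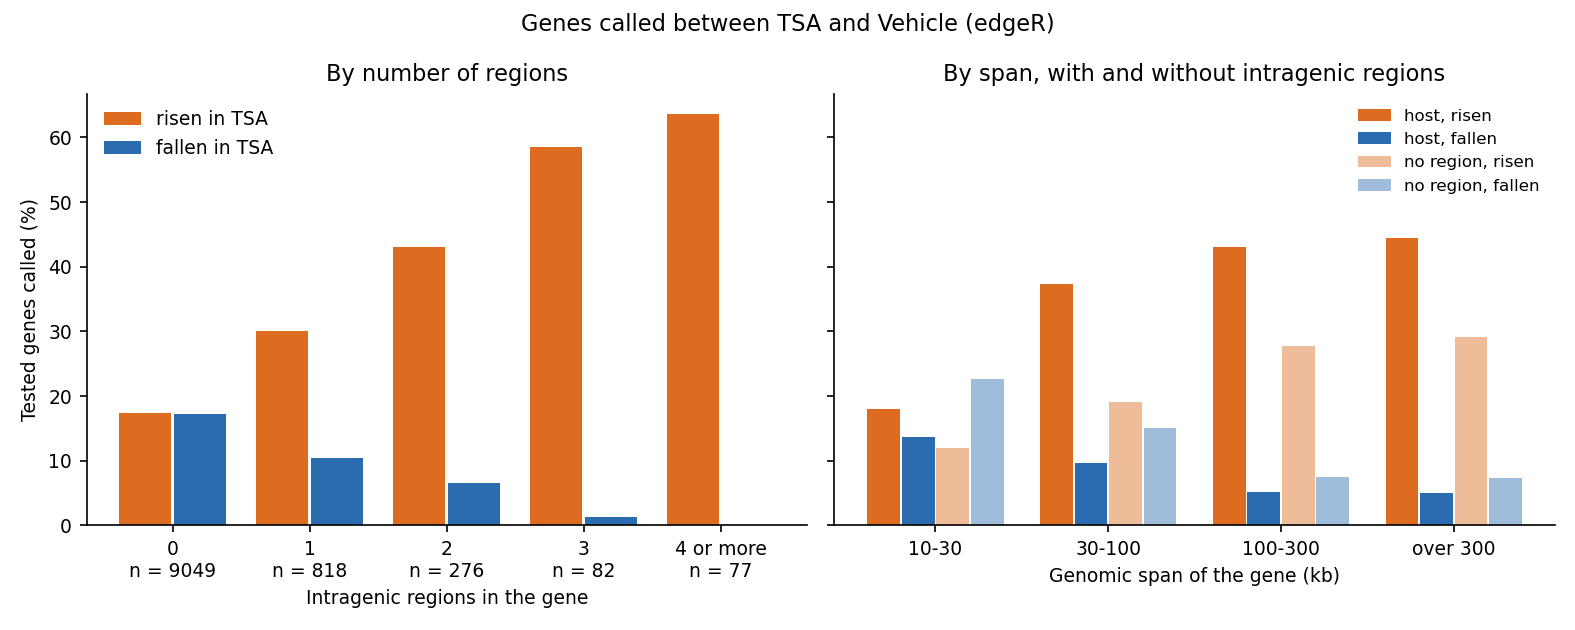
Percent of tested genes that rose (orange) or fell (blue) in TSA at an adjusted p under 0.05 (edgeR). Left, by the number of intragenic regions in the gene, from 17.4% risen with 0 regions (genes over 10 kb) to 63.6% with 4 or more; right, by genomic span, for hosts (solid) and genes without an intragenic region (pale).

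Hosts of regions without an annotated start rose more often than hosts of regions with one. Of 470 tested hosts whose regions all lacked a start, 46.6% rose and 5.53% fell, with a median log2 change of 0.30. Of 526 hosts with at least 1 region at a start, 28.1% rose and 58 fell, with a median of 0.11. Median spans were close, 94.0 and 82.6 kb. Among hosts with 1 region, 40.1% of 317 rose and 6.62% fell where it lacked a start. Where it had one, 20.6% of 325 rose and 14.8% fell, at a median span of 69.3 kb. These last shares were near those of genes of 30 to 100 kb with no region, 19.1% risen and 15.1% fallen. No test of the difference between hosts with and without a start was made, since genes are not replicates.

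Hosts of the regions split by treatment gave 54.4% risen and 2.75% fallen for 4 TSA and 2 Vehicle peaks (182 tested), and 35.3% risen and 9.80% fallen for the opposite split (51 tested). Hosts of a region with peaks in all 8 libraries gave 36.2% and 9.09% (693 tested), near the values for all hosts. The first split rests on Vehicle 4 in 197 of 219 regions, and its part in these shares was not tested.

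Of these 8 hosts with long series of regions, 3 rose and 5 did not pass. For comparison, 36.8% of all tested hosts, 63.6% of tested hosts with 4 or more regions and 15.4% of all tested genes rose. In Vehicle 1 to 4, Gse1 RNA was at 84.2, 67.9, 74.7 and 68.0 CPM, and TSA 1 to 4 gave 119, 103, 95.2 and 143 CPM. The groups did not overlap, and its log2 change was 0.64 ± 0.12 (SE, with 4 libraries in each group, adjusted p = 0.00134 by edgeR). Ttc28 rose from 345 ± 43.3 to 851 ± 147 CPM (SD, n = 4), a log2 change of 1.30 ± 0.14 (edgeR adjusted p = 3.23e-05).

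Tcf4 passed narrowly, with groups that overlapped, at 0.39 ± 0.14 (edgeR adjusted p = 0.0402), and its call ended when any library but Vehicle 2 was left out, with adjusted p from 0.0563 to 0.113. Tcf20 (0.21), Myo1d (0.17), Celf4 (0.03), Maml3 (−0.04) and Msra (−0.23) did not pass, with the log2 change in parentheses. Tcf20 passed without Vehicle 2 (edgeR adjusted p = 0.0247), and Msra passed with sequencing lane as a term (0.0494). A long series of acetylated regions thus occurred in genes with raised RNA and in genes without a called change.

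The largest called rises with groups that did not overlap were in hosts of 1 to 3 regions. Alpk1, an alpha-kinase gene, had 7.08, 6.12, 3.79 and 6.25 CPM in Vehicle and 30.9, 22.5, 20.5 and 27.5 CPM in TSA. Every TSA library was more than 2-fold above every Vehicle library, and the log2 change was 2.11 ± 0.19 (SE, edgeR adjusted p = 7.80e-06). Of its 3 regions, 2 had peaks in 4 TSA and 2 Vehicle libraries, and both of these lacked Vehicle 4, the shortest list. Pde1b, a calmodulin-dependent phosphodiesterase gene, had 49.4, 43.5, 46.6 and 40.5 CPM in Vehicle and 167, 144, 142 and 155 CPM in TSA, a rise of 1.75 ± 0.09 (edgeR adjusted p = 4.73e-08). Its region (chr15:103514249-103515558) covered an annotated start and had peaks in 4 TSA and 2 Vehicle libraries, lacking Vehicle 1 and Vehicle 4. Thsd4, which encodes an extracellular matrix protein, rose by 1.92 ± 0.15 and Celsr1, a planar cell polarity cadherin gene, by 1.64 ± 0.12. Smad6, an inhibitory Smad of BMP signalling, rose by 1.61 ± 0.32 from 0.679 ± 0.155 CPM, a low level. Lrp4 (1.46 ± 0.12), a receptor of agrin, Nav2 (1.41 ± 0.13), a neuron navigator gene, and Etl4 (1.39 ± 0.13) completed the group.

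The largest called falls with groups that did not overlap were in hosts of 1 region each. Pbx3, a TALE homeobox gene, had 92.4, 124, 171 and 147 CPM in Vehicle and 38.6, 53.6, 60.0 and 66.4 CPM in TSA. The groups did not overlap, and the log2 change was −1.28 ± 0.19 (SE, edgeR adjusted p = 0.000398). Foxp2, a forkhead factor of deep-layer and striatal neurons, had 61.7, 81.4, 127 and 98.8 CPM in Vehicle and 32.9, 48.4, 43.8 and 46.0 CPM in TSA (−1.09 ± 0.19, edgeR adjusted p = 0.00109). The regions of both genes had peaks in 7 libraries, missing 1 Vehicle library. The mark was thus present in TSA at hosts whose RNA was lower there.

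Psma6 had 244, 218, 223 and 316 CPM in Vehicle and 122, 127, 122 and 111 CPM in TSA, a log2 change of −1.06 ± 0.11 (edgeR adjusted p = 3.94e-05). Pid1, an adaptor gene with a phosphotyrosine-binding domain, fell by 1.03 ± 0.14 on the log2 scale and Hopx, a homeodomain-only gene of radial glia, by 1.08 ± 0.19. The regions in Psma6, Hopx and Pid1 each had peaks in all 8 libraries and lay at an annotated start. Gucy1b2, a guanylate cyclase gene, fell by 1.14 ± 0.20 on the log2 scale. Bfsp1 (1.73 ± 0.43 CPM in Vehicle, SD) and 4930522L14Rik (2.97 ± 0.94 CPM) were low in both groups and had log2 changes of −1.48 ± 0.36 and −1.28 ± 0.29.

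**Figure D5:**
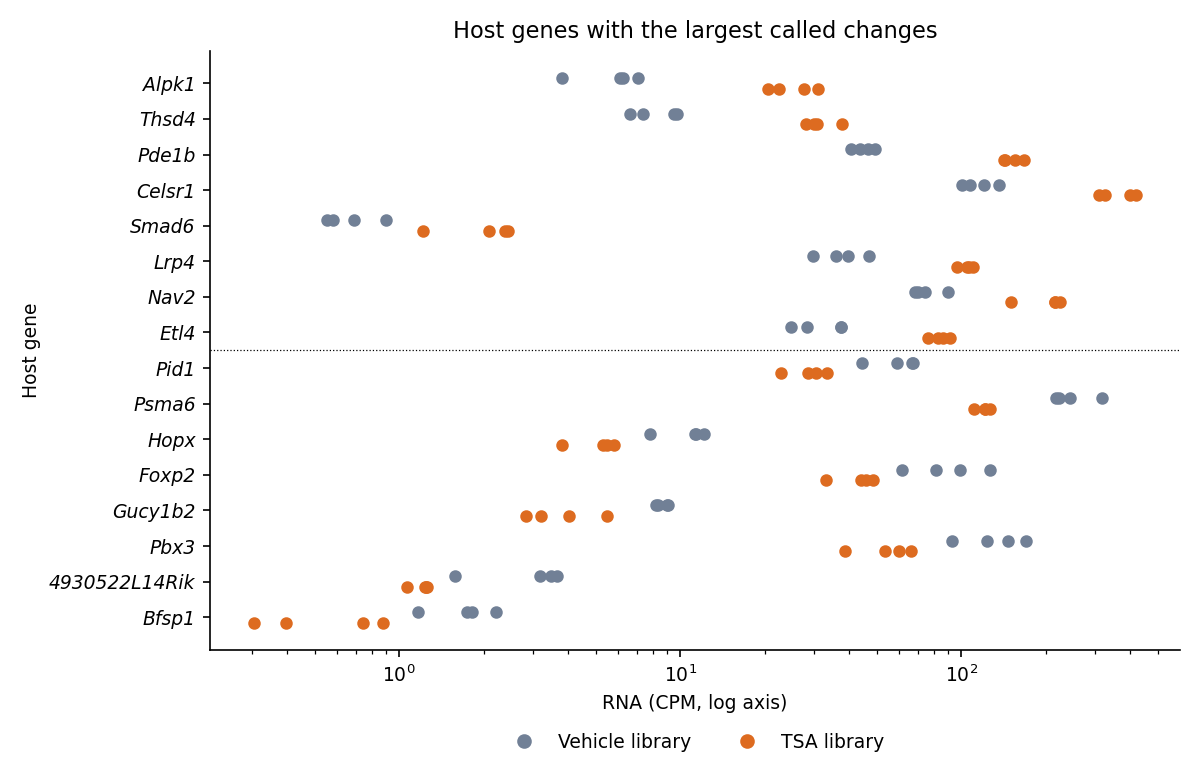
RNA in CPM (log axis) of the 8 host genes with the largest called rises (above the dotted line) and the 8 with the largest called falls (below it), 1 point per library, Vehicle in grey and TSA in orange. Only genes whose TSA and Vehicle libraries did not overlap were eligible. Alpk1, for example, had 7.08 CPM or less in Vehicle and 20.5 CPM or more in TSA.

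Functional lists of 574 symbols, written with earlier results of these data known, were divided into hosts and other genes. The counts of every list below are to be set beside the shares over all genes. Of 13292 tested protein-coding genes, 1253 were hosts. Of all tested genes 15.4% rose and 17.6% fell, and of all tested hosts 36.8% rose and 8.30% fell. Among transcription factors of cortical progenitors and neurons, 35 of 76 genes were hosts, holding 123 regions. Of these hosts 22 rose and 3 fell (median log2 change 0.52), and of the other 41 factors 20 rose and 5 fell (median 0.34). Nfix, a nuclear factor I gene of neural progenitors, held 8 regions and had 548, 551, 434 and 337 CPM in Vehicle and 1128, 963, 730 and 1127 CPM in TSA. The groups did not overlap (log2 change 1.08 ± 0.17, edgeR adjusted p = 0.000397). Pbx3 and Foxp2 were 2 of the 3 hosts that fell.

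Of 25 hosts among genes of the cytoskeleton and neuronal migration, 21 rose and 0 fell (median 0.45), and of 21 other listed genes 9 rose and 1 fell (median 0.20). Lrp8, a Reelin receptor, held 8 regions in 74.6 kb and rose from 374 ± 25.7 to 500 ± 18.7 CPM (SD, n = 4), a log2 change of 0.42 ± 0.09. Ank2 and Macf1, a spectraplakin that links microtubules and actin, held 3 regions each and rose by 0.48 ± 0.09 and 0.46 ± 0.11. Among chromatin regulators 19 of 22 hosts rose and 1 fell (median 0.50), and 30 of 46 others rose and 1 fell (median 0.40). Chd9 rose by 0.59 ± 0.09 and Kdm2b by 0.49 ± 0.10, while Hdac7 had a log2 change of 0.13 ± 0.13 that did not pass except without Vehicle 1 and Vehicle 4 (edgeR adjusted p = 0.0115).

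In Notch, Wnt, Hedgehog, FGF and BMP signalling 10 of 16 hosts rose and 0 fell (median 0.39), and 16 of 45 others rose and 5 fell (median 0.22). Vangl2, a planar cell polarity gene, held 4 regions in 26.4 kb, 15.2 per 100 kb, and rose by 0.56 ± 0.09. The groups of Maml3 and of Fgf13, an intracellular FGF homologue, overlapped, and neither passed. In axon guidance 7 of 14 hosts rose and 1 fell, and 13 of 36 others rose and 2 fell. Srgap3, which acts downstream of Robo receptors, held 5 regions and rose by 0.65 ± 0.09, Ephb2, an Eph receptor gene, rose by 0.33 ± 0.09, and Robo2 had a log2 change of 0.16 ± 0.15 that did not pass.

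Cell adhesion gave 10 rises and 2 falls among 20 hosts, and 14 and 3 among 36 others. Tenm3, a teneurin gene, rose by 0.65 ± 0.11, while Dscaml1 (8 regions, −0.08 ± 0.10) and Ptprs (5 regions, 0.12 ± 0.14) did not pass. Of 19 hosts among synapse and ion channel genes 9 rose and 0 fell, and of 45 others 18 rose and 3 fell. Dlg2 held 6 regions and rose by 0.36 ± 0.09, with overlapping groups. Its call ended without Vehicle 1 and Vehicle 4 (edgeR adjusted p = 0.0504). Cacna1c, a calcium channel gene, rose by 0.27 ± 0.09, a call lost without Vehicle 3 or TSA 1, 2 or 4 (adjusted p from 0.0657 to 0.0987) and with no filter (0.0551). Dlgap4 had 0.22 ± 0.11 and did not pass.

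Among RNA-binding proteins 9 of 15 hosts rose and 0 fell (median 0.31), and 13 of 26 others rose and 1 fell (median 0.33). Celf2 held 5 regions, 4 of them at annotated starts. It had 976, 1034, 934 and 761 CPM in Vehicle and 1254, 1355, 1198 and 1229 CPM in TSA, a rise of 0.44 ± 0.11 (edgeR adjusted p = 0.00768). Msi2, a Musashi gene with 5 regions, had a log2 change of −0.01 ± 0.10 and did not pass.

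Of 41 markers of apical radial glia and basal progenitors, 5 were hosts, with 6 regions in all. Over all protein-coding genes 1337 of 21900 were hosts, and 1253 of the 13292 that were tested. The share in this list was thus not below that of all genes. Rhbdl3 rose by 0.44 ± 0.12, a call lost without Vehicle 1 and Vehicle 4 (edgeR adjusted p = 0.0772). Hopx and Gpm6b, a membrane glycoprotein gene of glia (−0.39 ± 0.09), fell, and Lifr had a log2 change of −0.18 ± 0.11 that did not pass. The lists of microglia (12 genes), endothelium (12), mural and meningeal cells (11) and erythroid cells (9) held 0 hosts. Given the share over all genes, lists this short cannot show a lack of hosts.

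Markers of cortex, 9 genes such as Emx1 and Tbr1, were detected in every RNA library, in keeping with the labelled tissue. Markers of other cells were also detected in every library. Summed over their lists, cortical markers had 1945 to 2655 CPM in Vehicle and 3045 to 3564 CPM in TSA. Ganglionic eminence markers had 875 to 1100 CPM in Vehicle and 455 to 674 CPM in TSA, with no overlap, and 0 of these 6 genes were hosts. Microglial markers had 32.8 to 46.0 CPM and 24.8 to 35.1 CPM, endothelial markers 94.1 to 156 CPM and 93.7 to 123 CPM, mural and meningeal markers 149 to 198 CPM and 91.1 to 126 CPM, and erythroid markers 133 to 317 CPM and 87.2 to 119 CPM. The part of these differences in the RNA changes of the hosts was not tested.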

How the data were processed

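The authors deposited 1 table of raw read counts per gene for each of 8 RNA libraries, and 1 peak list for each of 8 H3K9ac libraries. Per the file headers, the lists were made with MACS2 2.1.0.20140616 at a q limit of 0.1 against the same input of 18937878 tags. They give peak coordinates, pileup signal (coverage at the summit), the fold over local background, and −log10 p and q. The build was mm10 per the submitters' processing notes, and the sources used here name no aligner, counting tool or annotation. Per the labels' protocols the RNA kit does not mark strand, so overlapping genes cannot be told apart.

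Peaks were merged where they overlapped by 1 bp or more, and starts came from RefSeq windows (GRCm38.p6), which matched 1057 of 1337 hosts. Of the hosts, 1327 matched a counted gene and 1253 passed edgeR's filterByExpr. Counts were tested with edgeR 4.0.16 (TMM, quasi-likelihood, R 4.3.3), with limma 3.58.1 and DESeq2 1.42.0 as alternatives. RNA totals ran from 6733415 to 20400727 counts.

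Named were the 10 hosts with most regions, the 10 regions of highest mean percentile, up to 3 hosts per list, up to 8 called rises and 8 called falls without overlap, and up to 4 regions of each split. The regions, lists and rules were chosen with earlier results of these data known. Sequences around summits were not used here, and internal start windows were printed in their place. Some genes named by this rule are not reported here. The 2 input samples were not analysed here.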

Additional observations from a re-analysis of the deposited data

Results flagged for a closer look

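In 7 of 132 groups of 4 libraries, 1 library lay apart from the other 3 beyond the 95% limit of Dixon's test (a gap of 0.829 of the range). Chance alone flags about 1 group in 20. Among H3K9ac libraries, Vehicle 4 had a peak in 1302 intragenic regions, below the other Vehicle libraries. Among RNA libraries, Msi2 stood at 213 CPM in Vehicle 2, above the others. Tenm3 stood at 77.9 CPM in Vehicle 4, below the others, and Zfp949 at 27.6 CPM in Vehicle 4, above them. In TSA libraries, 4930522L14Rik stood at 1.07 CPM in TSA 1, Ank2 at 444 CPM in TSA 4 and Nav2 at 150.3 CPM in TSA 3, each below the others. The calls for Tenm3, 4930522L14Rik, Ank2 and Nav2 held under every alternative tried.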

How the results depend on the processing

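The number of intragenic regions was 897 with a peak required in all 8 libraries, 1300 with widths under 1000 bp and 998 at least 1 kb from every annotated start. Leaving out 1 list at a time (5 of 7 required) gave 2299 to 2796. The share with a start was 34.0% with 5 or more libraries, 59.3% with all 8, 44.6% at more than 2 kb and 38.4% at more than 10 kb from gene ends, 46.8% for peaks of fold 4 or more, and 38.6% for starts within 500 bp. Hosts that fell came to 4.89% for regions away from starts. Leaving out 1 RNA library at a time gave 30.1 to 38.8% risen and 6.05 to 9.54% fallen among hosts. Over all RNA settings, hosts rose 1.85 to 2.50 times as often as genes over 10 kb without a region. This ratio was matched for neither span nor RNA level, and the median spans were 87.2 and 34.1 kb. Among genes over 100 kb with a mean of at least 10 CPM the shares were closer, 49.7% and 35.8%. Of 39 named genes called, 31 kept their call in all 15 settings. A reversal was counted only where a gene was called in the main test or in that setting, and 0 of 65 genes had one. Uncalled genes could change sign: the log2 change of Robo2 ran from −0.05 to 0.31 and that of Maml3 from −0.20 to 0.07. With replicate number as a block, 39.0% of hosts rose and 8.70% fell. Same-numbered libraries correlated at 0.07 to 0.11 after removing group means, so the numbers were not taken as pairs. Alternatives without the lists of Vehicle 4 and TSA 3, and for long, expressed hosts, were chosen after seeing the data. Motif windows around summits were not run. With 1 input and lists of unequal length, depth limits any comparison of peak height.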

Other observations

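Tex14, a gene of the intercellular bridges of germ cells, held 6 intragenic regions, 5 of them with peaks in all 8 libraries. None had an annotated start within 1 kb, yet 2 of them were among the 10 highest of all 2139 by mean percentile (99.5 and 97.7). The first (chr11:87448137-87448843) had fold enrichments of 19.2, 16.6, 15.6 and 13.9 in Vehicle 1 to 4 and 15.7, 14.2, 12.8 and 29.2 in TSA 1 to 4. Tex14 RNA was close to none, with 8, 8, 12 and 6 counts in Vehicle and 4, 14, 8 and 8 counts in TSA, and the gene was too low to be tested. The host gene of the highest-ranked intragenic region was thus almost silent in these libraries. Another Tex14 region (chr11:87442521-87443446, percentile 89.8) lay 1056 bp from the annotated start of a different gene, LOC115487798, whose RNA is not given here.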
